A study of Mus musculus with 20 samples.

Results

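The genes described here are the 10 that encode the core of systemic iron regulation: Hamp, Hamp2, Tfrc, Tfr2, Slc40a1, Fth1, Ftl1, Trf, Hfe and Bmp6. They were chosen by name, and every array probe whose transcript accession maps to one of these symbols was taken, which gave 11 probes among the 41174 probes of the array (10 genes among the 16535 named ones). Each was measured in the livers of adult male Muta™Mouse animals (transgenic mouse strain 40.6, a line that carries a lacZ reporter), aged 25 weeks and dosed daily by oral gavage for 28 days with benzo(a)pyrene (BaP) in olive oil at 25, 50 or 75 mg/kg/day, or with olive oil alone as the control. Livers were taken 3 days after the last dose, so the values describe the state after exposure had stopped. Each of the 4 groups held 5 mice with 1 array each, and replicates carry the study's own sample numbers, 1 to 5 for control, 6 to 10, 11 to 15 and 16 to 20 for the rising doses. Liver RNA was labelled with Cy5 and a reference pool of mouse cell line RNA with Cy3 on the same array, without a dye swap, so a value is the log2 ratio of liver over reference signal, here called the level.

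The arrays lay on 6 slides. Slides 1 to 3 held 1 array of each group, slides 4 and 5 held 25 and 75 mg/kg/day only, and slide 6 held control replicates 2 and 3 with 50 mg/kg/day replicates 12 and 13. Position 2 on a slide held the 5 arrays at 25 mg/kg/day and control replicate 2, and position 4 held the 5 arrays at 75 mg/kg/day and replicate 13 at 50 mg/kg/day. The other controls were at position 1 and the other arrays at 50 mg/kg/day at position 3, so arrays at 50 and 75 mg/kg/day shared no position with a control, and for those comparisons dose and position cannot be told apart. Control replicate 4 stood apart, since 67.5% of its spots passed the scanner's background test for liver signal and 51.9 to 54.3% did on the other controls, and values that move most without it are also given without it. Submitter labels name both lung and liver as the tissue. All 8 hepatocyte markers measured were well above background on every array, while of 8 lung epithelium markers on the array only Lamp3 and Napsa were, with Sftpd and Sftpa1 so on 19 and 16 arrays.

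As background, iron leaves cells through ferroportin, the product of Slc40a1, and the liver hormone hepcidin, made from Hamp, binds ferroportin and leads to its removal. Hepatocytes raise hepcidin when BMP6, a ligand released mainly by sinusoidal endothelial cells, signals through SMAD proteins, and HFE and transferrin receptor 2 take part in that sensing. Transferrin (Trf) carries iron in plasma, transferrin receptor 1 (Tfrc) takes it up, and ferritin heavy and light chains (Fth1 and Ftl1) store it. Tfrc and ferritin are controlled largely after transcription, by iron regulatory proteins that bind their messenger RNAs.

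No iron regulation gene passed the test at any dose. A probe was called when limma's Benjamini-Hochberg adjusted p over the 27346 present probes was under 0.05 and the fold change was over 1.5. By that rule 0 of 10 members were called at 25 mg/kg/day, where 0% of present probes were called, 0 of 10 at 50 mg/kg/day, again with 0% of present probes called, and 0 of 10 at 75 mg/kg/day, where 0.135% (37 probes) were called. Adjusted p-values of the members ran from 0.636 to 0.996, from 0.625 to 0.988 and from 0.332 to 0.951 at the rising doses. At an unadjusted p under 0.05 there was 1 member at 25 mg/kg/day (Hfe), with 7.81% of all present probes there, 2 at 50 mg/kg/day (Bmp6 and Hamp2), with 6.7%, and 3 at 75 mg/kg/day (Hamp2, Bmp6 and Trf), with 11.2%. The median log2 fold change over the 10 members was 0.19, 0.16 and 0.23, against 0.0009, -0.0032 and 0.0025 over all present probes. A median above 0 was not particular to the members. Hepatocyte markers had 0.352, 0.306 and 0.411, erythroid markers 0.325, 0.255 and 0.312, and sinusoidal endothelial markers 0.285, 0.28 and 0.32. Kupffer cell markers had 0.176, 0.212 and 0.124, and lung epithelium markers -0.003, 0.118 and 0.044. No member had all 5 arrays of a dose on one side of all 5 controls, which 1.21%, 0.815% and 1.52% of present probes did.

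**Figure D1:**
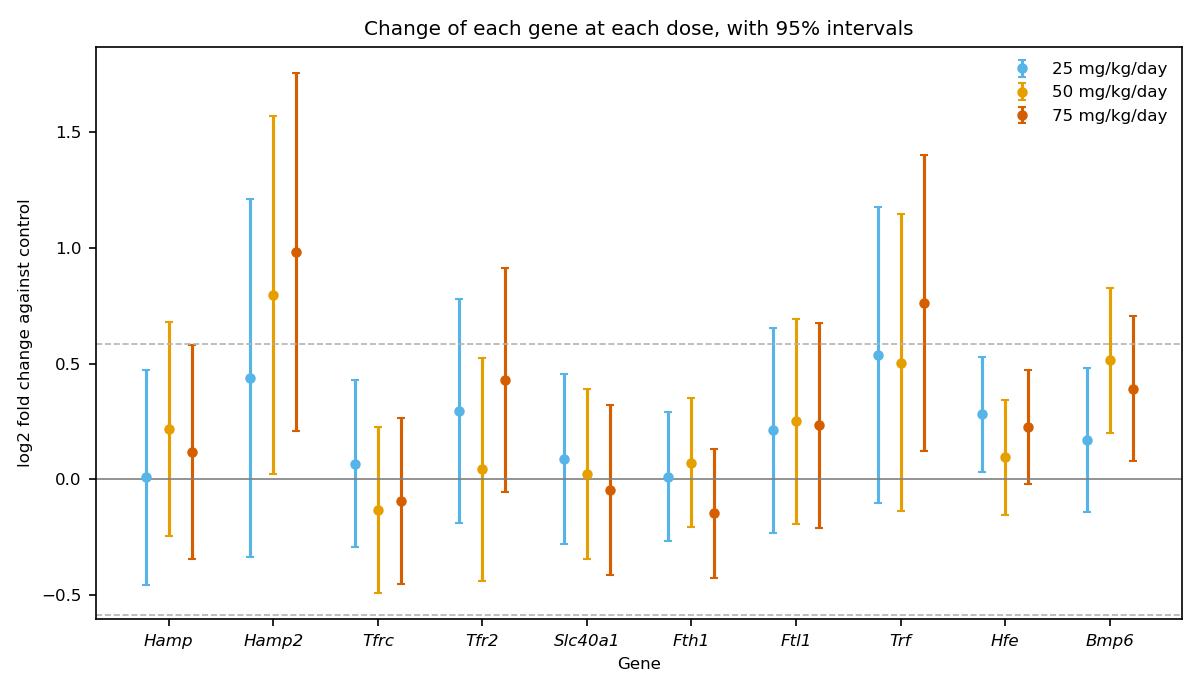
Log2 fold change against control (y axis) of each of the 10 genes at each BaP dose (25, 50 or 75 mg/kg/day), with 95% confidence intervals from limma as bars. The solid line marks no change and dashed lines a fold of 1.5 either way. The interval lay wholly above 0 for Hfe at 25, for Hamp2 and Bmp6 at 50 and for Hamp2, Trf and Bmp6 at 75 mg/kg/day, and none of these passed adjustment.

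Precision differed between members, and the intervals say what change of the ratio of liver over reference could have been missed. Fth1 was the tightest at 75 mg/kg/day among the storage and transport genes, with a 95% interval of 0.745-fold to 1.1-fold, and Slc40a1 lay within 0.751-fold to 1.25-fold. For Hamp the interval at 75 mg/kg/day was 0.788-fold to 1.5-fold, whereas for Hamp2 it ran from 1.16-fold to 3.38-fold. With 5 arrays a group these intervals leave changes of the ratio of that size undecided. They do not bound a change in the liver signal itself. For Hamp that signal alone, after quantile scaling, had a pooled SD within groups of 0.817 against 0.381 for the ratio (log2).

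Mice carry a pair of hepcidin genes side by side on chromosome 7, Hamp and Hamp2, and the promoters of both are shown. Neither gene passed the test at any dose, and their changes were not compared with each other by a test. The 150 bases before the start of each are from RefSeq (GRCm38.p6, minus strand), at chr7:30944030-30944179 for Hamp and chr7:30924182-30924331 for Hamp2. Capitals mark, in order, the letters GGCGCC or those aligned with them, TTCNNNGAA and TGAGTCA.
Hamp: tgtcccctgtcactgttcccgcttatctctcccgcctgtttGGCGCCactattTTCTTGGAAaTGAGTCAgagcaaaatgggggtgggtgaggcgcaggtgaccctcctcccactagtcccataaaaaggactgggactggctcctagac
Hamp2: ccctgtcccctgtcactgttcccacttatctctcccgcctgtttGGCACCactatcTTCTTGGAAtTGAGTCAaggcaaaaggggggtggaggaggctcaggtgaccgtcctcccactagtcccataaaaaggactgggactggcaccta

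Aligned without gaps, 135 of 147 bases (91.8%) were the same. The core of the BMP response element, GGCGCC, began 109 bases before the start of Hamp, and in Hamp2 the aligned letters differed by G4A, counted from the first letter of the 6. TTCNNNGAA, the letters STAT factors recognise, stood at 97 bases before Hamp and 94 before Hamp2, and TGAGTCA, an AP-1 motif, at 87 and 84, none of these overlapping another. Searched on both strands over 250 bases before the start, GGCGCC was found in 9.59% of 32851 windows, TTCNNNGAA in 7.02% and TGAGTCA in 4.46%. Of the other members with a window, TGAGTCA was in that of Hfe and GGCGCC in that of Tfrc. The letters GCGTG, the core of the AhR binding site, was in 28.2% of windows and in those of Bmp6, Fth1, Ftl1, Tfr2 and Tfrc, but not of Hamp or Hamp2, and no window was given for Slc40a1 or Trf. These matches describe letters only.

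Hamp, the source of the hormone, showed no change that passed the test. Its control levels were 4.04, 3.97, 4.16, 3.095 and 3.64 on the log2 scale for replicates 1 to 5. At 25 mg/kg/day they were 3.73, 4.44, 3.57, 3.54 and 3.67, and at 75 mg/kg/day 3.87, 3.59, 3.73, 4.63 and 3.69. The groups overlapped throughout, with 1 array above all controls at each of these doses and 2 at 50 mg/kg/day, where the arrays read 3.78, 4.38, 4.23, 3.78 and 3.84. Mean levels were 3.78 ± 0.43 in controls (SD, n = 5), 3.79 ± 0.37, 4.00 ± 0.29 and 3.90 ± 0.42 with rising dose. The log2 fold changes were 0.01, 0.22 and 0.12, each with a standard error of 0.22 (adjusted p = 0.996, 0.883 and 0.885). The signs at 25 and 75 mg/kg/day were not settled, as both were negative without control replicate 4 (-0.16 and -0.05).

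The Hamp level varied mainly between slides. The 6 arrays of slides 5 and 6 read 3.97 to 4.63 whatever their dose, and the 14 others 3.095 to 4.04. Slides accounted for 80.4% of the variance of Hamp and groups for 6.44%, against medians of 40.2% and 15.4% over present probes. On the same slide as a control, Hamp at 75 mg/kg/day was higher on 2 of 3 slides (0.49, 0.09 and -0.17), and with slide as a block the changes were 0.02, 0.22 and 0.13.

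The 2 channels of the Hamp spot also moved together. Liver signal spanned 6470 to 76130 scanner units over the 20 arrays, an 11.8-fold range, and the reference signal, from the same pool on every array, spanned 915 to 4916, a 5.37-fold range. With each array's median removed, the log2 signals of the channels had r = 0.87 over 20 arrays, where the median present probe had 0.269 and 98.2% of present probes lay lower. The points share the array and its spot, and the part of this in the ratio was not tested. Read from the liver channel alone after quantile scaling, Hamp averaged 14.48 ± 0.74 in controls and 14.93 ± 0.72 at 75 mg/kg/day (log2 signal, SD, n = 5), and its pooled SD within groups was 0.817 against 0.381 for the ratio. On that scale the log2 fold changes were 0.26, 0.26 and 0.45 (adjusted p = 0.959, 1 and 0.882).

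**Figure D2:**
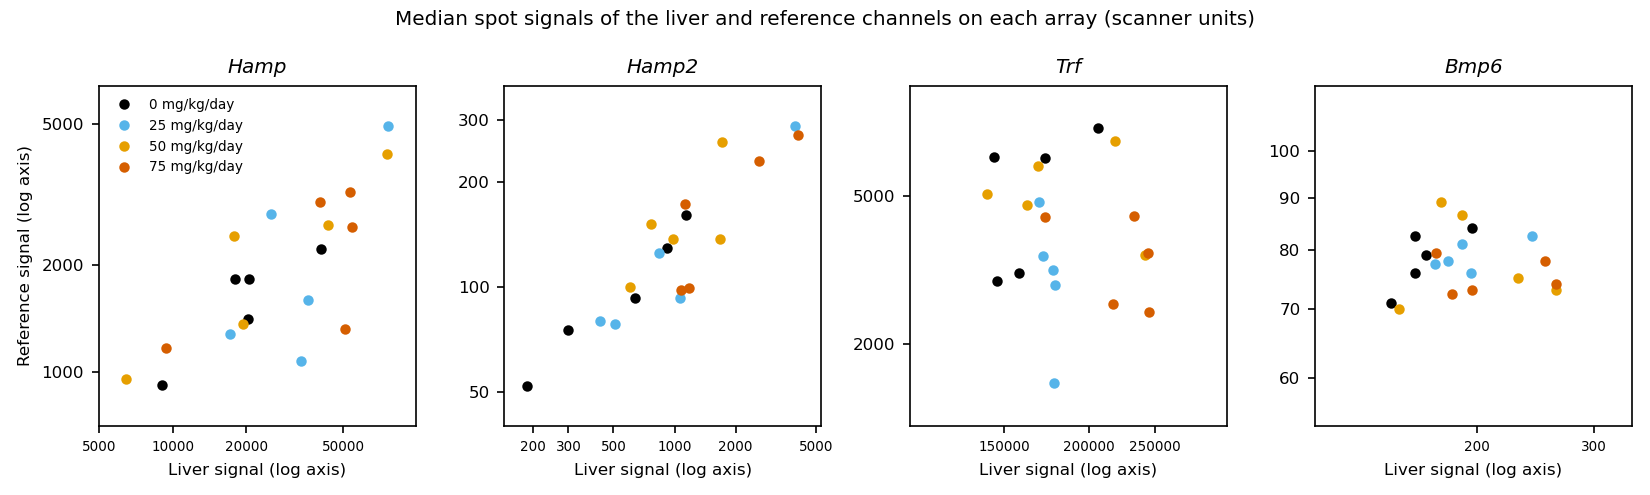
Median spot signal of the liver channel (x axis) against that of the reference channel (y axis), in scanner units on log axes, for Hamp, Hamp2, Trf and Bmp6, 1 point per array and coloured by dose. For Hamp and Hamp2 the reference signal climbed with the liver signal. With each array's median removed, which is not done in the plot, r was 0.87 and 0.973. For Trf the liver signal spanned 1.73-fold and the reference signal 4.83-fold, and for Bmp6 the reference signal spanned 1.27-fold.

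Hamp2, the neighbouring copy, whose product is not thought to act on iron as hepcidin does, had the widest spread in controls of the 10 genes. Control levels were 3.47, 1.86, 3.44, 2.77 and 1.44 for replicates 1 to 5. At 25 mg/kg/day the arrays read 3.21, 2.04, 4.06, 3.29 and 2.57. At 50 mg/kg/day they read 3.17, 3.11, 3.29, 3.52 and 3.86, and at 75 mg/kg/day 3.58, 3.80, 4.13, 3.06 and 3.32. Exposed arrays at the upper pair of doses all lay above the 3 lowest controls, while the other 2 controls lay among them, with 2 arrays at 50 and 3 at 75 mg/kg/day above every control. The mean level was 2.60 ± 0.92 in controls (SD, n = 5) and 3.04 ± 0.77, 3.39 ± 0.31 and 3.58 ± 0.42 with rising dose. Fold changes were 1.36, 1.74 and 1.98, with 95% intervals of 0.794 to 2.32, 1.02 to 2.97 and 1.16 to 3.38 (unadjusted p = 0.249, 0.0439 and 0.0153, adjusted p = 0.779, 0.732 and 0.332). From the scanner's processed signals the log2 fold changes at the upper doses were 0.28 and 0.42 in place of 0.80 and 0.98 (adjusted p = 0.765 and 0.377). The liver channel alone gave larger ones, 1.08 and 1.39 (adjusted p at 75 mg/kg/day = 0.558). With slide as a block they were 0.80 and 1.20 (adjusted p = 0.433 and 0.237).

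The Hamp2 difference at 75 mg/kg/day was positive on all 3 slides that held both groups, at 1.03, 2.69 and 0.11 on the log2 scale. Without control replicate 5, the lowest, it was 0.69, and without control replicate 2 it was 0.80. The reference signal of Hamp2 ranged from 52 to 289, and on control replicate 5 it was not well above background. With each array's median removed it followed the liver signal at r = 0.973 over 20 arrays, above 99.8% of present probes. Probe sequences were not used here, and whether either hepcidin probe also binds the other copy was not tested.

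Bmp6, the ligand that drives hepcidin, had the smallest unadjusted p of any member at 50 mg/kg/day. Of its 2 probes, 1 was well above background on all 20 arrays, and the other on 0 of 20. Only the first was among the present probes, so only the first was tested. Control levels were 0.83, 0.68, 0.41, 0.84 and 0.85. The 5 arrays at 50 mg/kg/day read 1.20, 0.83, 1.51, 1.49 and 1.15, and those at 75 mg/kg/day 1.04, 1.53, 1.15, 1.05 and 0.78. At each dose 4 of 5 arrays lay above every control, the exceptions being replicate 7 (0.50), replicate 12 (0.83) and replicate 20 (0.78). Means were 0.72 ± 0.19 in controls (SD, n = 5) and 0.89 ± 0.23, 1.24 ± 0.28 and 1.11 ± 0.27 with rising dose.

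Fold changes of Bmp6 were 1.13 (95% interval 0.906 to 1.4), 1.43 (1.15 to 1.77) and 1.31 (1.06 to 1.63), with unadjusted p = 0.27, 0.00262 and 0.0166 and adjusted p = 0.787, 0.625 and 0.339. Same-slide differences from control were positive on each slide, and all of them rest on the same 4 control values (1 array on slides 1 to 3, the mean of 2 on slide 6). They ran from 0.09 to 0.24 at 25, from 0.31 to 0.64 at 50 and from 0.21 to 0.69 at 75 mg/kg/day. The liver channel alone gave 0.21 at 75 mg/kg/day in place of 0.39 (log2, adjusted p = 0.705). Slides took 20.8% of its variance and groups 45%. The dim second probe, on which no array rose above background, read 0.04 ± 0.06 in controls and 0.08 ± 0.12 at 50 mg/kg/day and so gives no second measurement. Markers of sinusoidal endothelial cells averaged 2.75 to 3.32 in controls and 3.36 to 3.91 at 75 mg/kg/day, but without Lyve1, the one marker called, the ranges overlapped (2.98 to 3.46 and 3.32 to 3.82). In whole liver more such cells and more RNA per cell cannot be told apart.

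**Figure D3:**
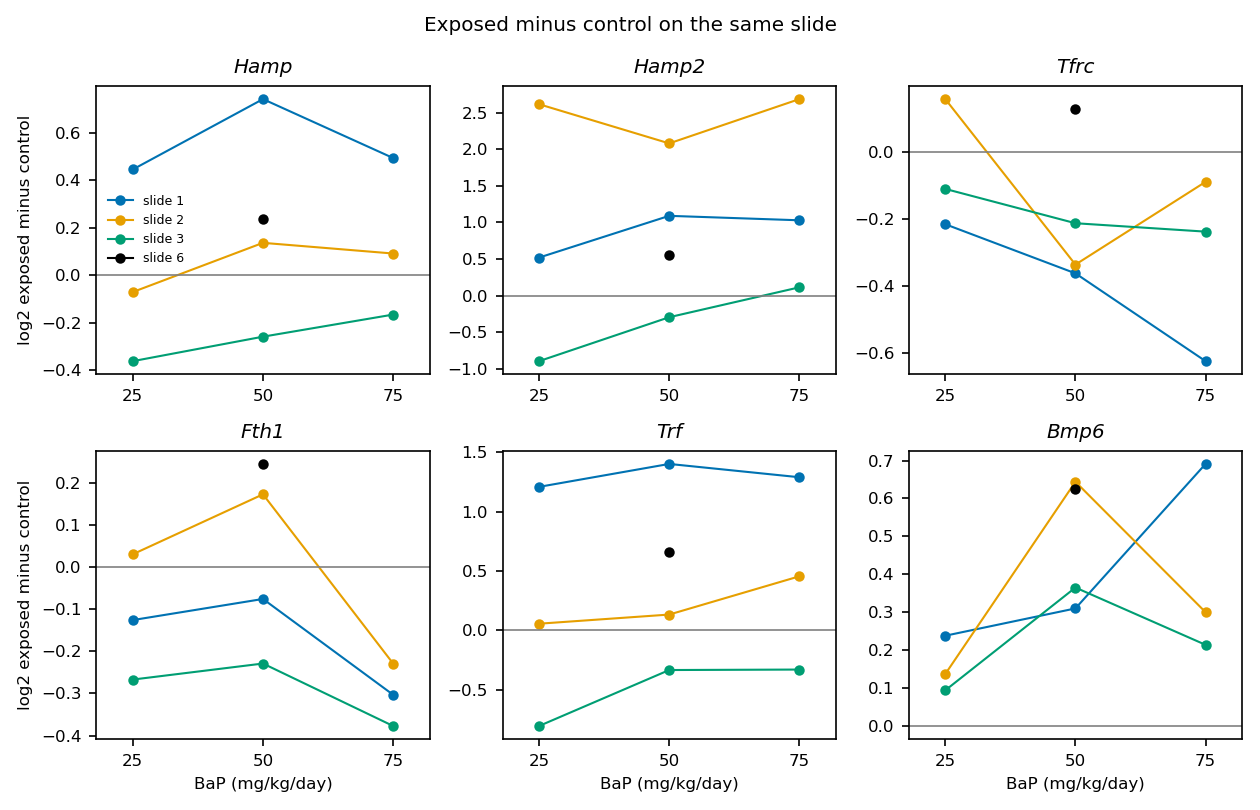
Level of an exposed array minus that of the control on the same slide (y axis, log2) by dose (x axis) for 6 genes, with 1 line per slide for slides 1 to 3, and for slide 6 the mean of 2 arrays minus the mean of 2 controls. Every Bmp6 point is above 0, and Fth1 and Tfrc are below 0 on all 3 slides at 75 mg/kg/day. The lines of Hamp, Hamp2 and Trf lie apart by slide. Each line shifts with its control, 1 array on slides 1 to 3 and the mean of 2 on slide 6.

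Hfe, the hemochromatosis protein that takes part in iron sensing, was the only member with an unadjusted p under 0.05 at 25 mg/kg/day. Controls read 2.96, 3.13, 2.73, 2.99 and 2.88, and the arrays at 25 mg/kg/day 3.42, 3.06, 3.34, 2.98 and 3.29, so 3 of 5 lay above all controls. The fold change was 1.21 (95% interval 1.02 to 1.44, unadjusted p = 0.0284, adjusted p = 0.636). At 50 and 75 mg/kg/day it was 1.07 and 1.17 (adjusted p = 0.912 and 0.487), so the values did not climb with dose. The liver channel alone gave 0.07 at the lowest dose, where the ratio gave 0.28 (both log2).

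Tfr2, the hepatocyte transferrin receptor that senses saturated transferrin, ran from 4.37 to 5.79 in controls and from 5.13 to 5.66 at 75 mg/kg/day. The exposed arrays thus lay inside the control range, with the control spread set by a split of 2 high arrays (5.79 and 5.49, replicates 1 and 5) and 3 low ones (4.37, 4.62 and 4.59). Log2 fold changes were 0.30, 0.04 and 0.43 with a standard error of 0.23 (adjusted p = 0.756, 0.981 and 0.5). Slides took 78.5% of the variance, and with slide as a block the change at 25 mg/kg/day was -0.02 and that at 75 mg/kg/day 0.11.

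Trf, the plasma carrier, showed the same split in controls and the second largest fold change of the members at 75 mg/kg/day. Control levels were 5.98, 4.11, 4.36, 4.00 and 5.46 for replicates 1 to 5. At 75 mg/kg/day the arrays read 5.65, 5.29, 5.92, 5.12 and 5.73, all within the control range and all above the 3 lower controls. The fold change there was 1.7 (95% interval 1.09 to 2.64, unadjusted p = 0.0221, adjusted p = 0.361), after 1.45 and 1.42 at the lower doses. Without control replicate 4, the lowest, it was 0.57 on the log2 scale in place of 0.76. On the 3 shared slides the difference at 75 mg/kg/day was 1.29, 0.46 and -0.33, the first against control replicate 4, and with slide as a block the change was 0.48 (unadjusted p = 0.0564, adjusted p = 0.396).

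The spread of Trf lay mainly in the reference signal. Its liver signal was 141700 to 244700 scanner units on all arrays, a 1.73-fold range, while the reference signal ran from 1569 to 7577, a 4.83-fold range, and the ratio had r = -0.729 with the log2 reference signal over 20 arrays, which the ratio itself contains. No spot was saturated. From the liver channel alone the log2 fold changes of Trf were -0.19, 0.23 and 0.17 (adjusted p = 0.92, 1 and 0.816) in place of 0.54, 0.50 and 0.76. For Tfr2 the ranges of the liver and reference signals as scanned were alike, at 2.82-fold and 2.78-fold. With each array's median removed, the reference varied more for both genes. The SDs of the log2 liver and reference signals were then 0.233 and 0.382 for Tfr2 and 0.215 and 0.571 for Trf. The Tfr2 ratio had r = -0.838 with the reference signal, and the liver channel gave 0.03 at 75 mg/kg/day in place of 0.43. How far the reference channel shaped either ratio was not tested further.

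**Figure D4:**
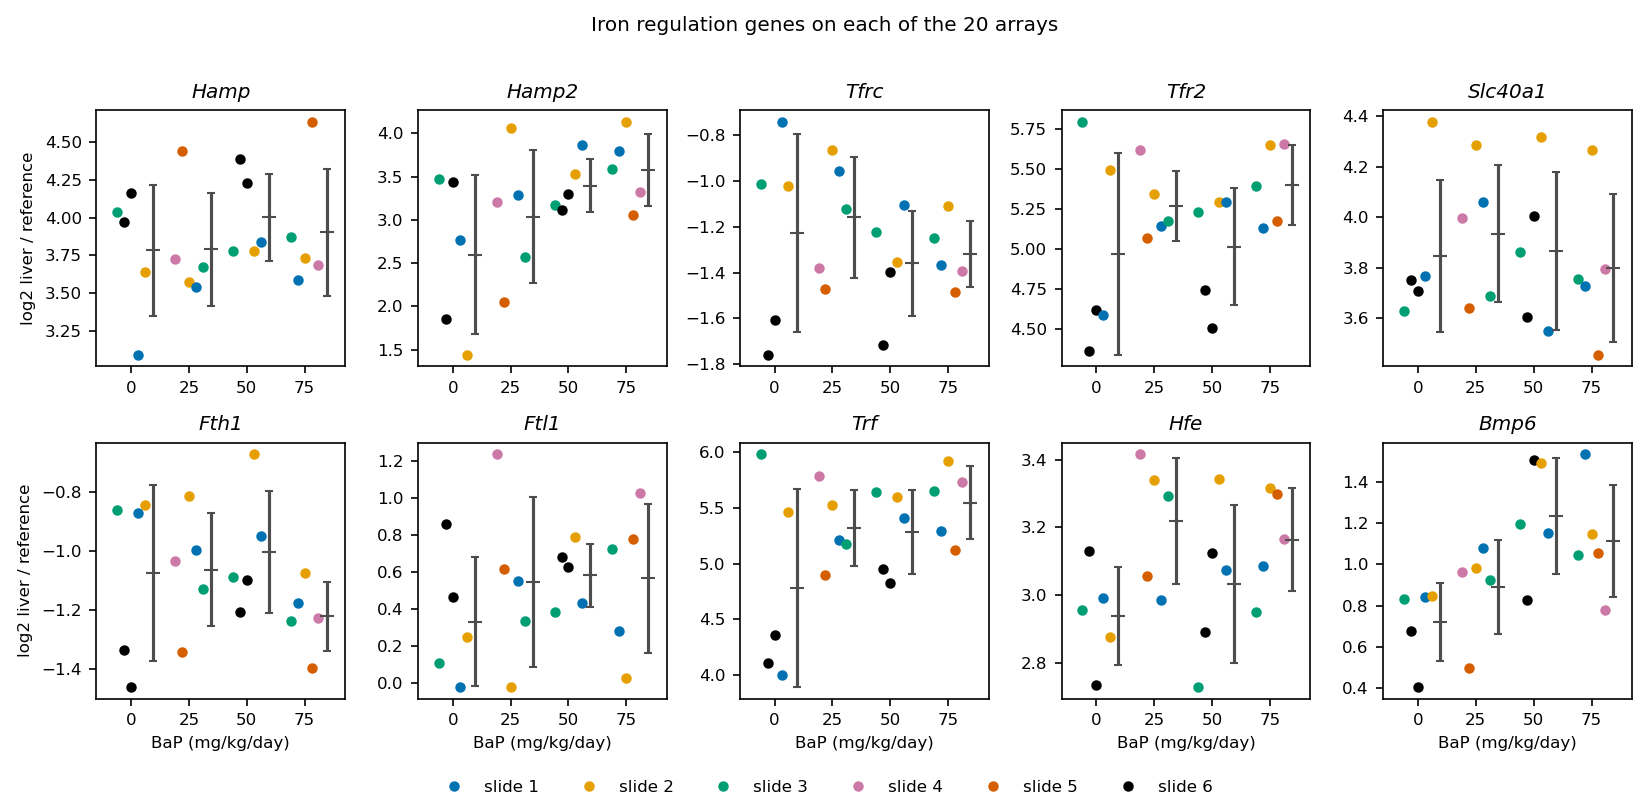
Log2 liver over reference level (y axis) of each of the 10 genes on all 20 arrays by BaP dose (x axis, mg/kg/day), 1 point per array coloured by slide, with the group mean and SD (n = 5) as a grey bar at the right of each group. Hamp sits high on slides 5 and 6 at every dose, Slc40a1 sits high on slide 2 (4.27 to 4.38), and Bmp6 has 4 of 5 exposed arrays above all controls at each dose.

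Tfrc, the receptor that takes up transferrin-bound iron, was lower in liver than in the reference pool on every array. Its 1 probe was printed as 10 spots per array, and the SD between spots was 0.0507 to 0.145 with a median of 0.0723, against 0.288 between arrays of a group, so spot noise was a small part of the spread. Controls read -1.01, -1.76, -1.61, -0.74 and -1.02, and the arrays at 75 mg/kg/day -1.25, -1.36, -1.11, -1.49 and -1.39, inside the control range. Log2 fold changes were 0.07, -0.13 and -0.09 with a standard error of 0.17 (adjusted p = 0.94, 0.917 and 0.885). On the 3 shared slides the differences at 75 mg/kg/day were -0.62, -0.09 and -0.24, the first against control replicate 4, and without that array the change at 75 mg/kg/day was 0.03, so its sign was not settled.

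Slc40a1, which encodes the exporter ferroportin, gave group means of 3.85 ± 0.30, 3.93 ± 0.27, 3.87 ± 0.31 and 3.80 ± 0.29 (SD, n = 5). Log2 fold changes were 0.09, 0.02 and -0.05 with a standard error of 0.18 (adjusted p = 0.92, 0.988 and 0.951). All 4 arrays of slide 2, 1 from each group, read 4.27 to 4.38, above the other 16, which ran from 3.46 to 4.06. Slides took 79.4% of the variance of Slc40a1 and groups 3.29%.

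The ferritin subunits did not pass the test either. Fth1, the heavy chain with ferroxidase activity, read -0.86, -1.34, -1.46, -0.87 and -0.85 in controls and -1.24, -1.18, -1.07, -1.40 and -1.23 at 75 mg/kg/day. The exposed values lay within the control range, and on the same slides as a control they were lower on 3 of 3 (-0.30, -0.23 and -0.38). At the highest dose Fth1 differed by -0.15 ± 0.13 on the log2 scale (SE, adjusted p = 0.719), and by -0.23 with slide as a block (unadjusted p = 0.0259, adjusted p = 0.309). At 25 and 50 mg/kg/day the changes were 0.01 and 0.07.

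Ftl1, the light chain, read 0.10, 0.86, 0.46, -0.02 and 0.25 in controls and ran from 0.02 to 1.02 at 75 mg/kg/day. Its log2 fold changes were 0.21, 0.25 and 0.23 with a standard error of 0.21 (adjusted p = 0.816, 0.857 and 0.718). RefSeq lists 2 Fth1 and 2 Ftl1 pseudogenes, and signal from such copies could not be separated here.

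Over the 4 doses taken as a line, 0 members had an adjusted p under 0.05, where 0.157% of present probes did (43). Bmp6 had the smallest p of the trend, at 0.0061 log2 units per mg/kg/day (unadjusted p = 0.00538, adjusted p = 0.33), followed by Hamp2 at 0.0132 (0.00756 and 0.376) and Trf at 0.009 (0.0273 and 0.509). An unadjusted p under 0.05 was held by 8.58% of present probes. Between neighbouring doses 0 members were called, and 1 step, Bmp6 from 25 to 50 mg/kg/day, had an unadjusted p under 0.05 in the limma fit (1.27-fold, unadjusted p = 0.0325, adjusted p = 0.573).

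Pairs of members varied together across arrays in ways that changed with the slides. Trf and Tfr2 had r = 0.929 over 20 arrays and 0.85 after each slide's mean was taken off. Hamp and Trf had r = -0.087 as measured and 0.92 with slide means removed, and Hamp and Tfr2 -0.195 and 0.858. Hamp and Tfrc went from -0.707 to -0.386, and Tfrc and Ftl1 from -0.679 to -0.614. With the other ferritin chain the sign was opposite, as Tfrc and Fth1 went from 0.71 to 0.39. Slc40a1 and Fth1 went from 0.616 to 0.165, and not every pair is listed. These are descriptions over arrays that share slides, groups and 1 reference pool. Control replicate 4 is the lowest array for both Hamp and Trf. Over the other 19 arrays, with slide means removed, r was 0.839 for Hamp and Trf, 0.752 for Hamp and Tfr2, 0.733 for Trf and Tfr2, -0.041 for Hamp and Tfrc and -0.517 for Tfrc and Ftl1, and as measured it was -0.462 for Hamp and Trf.

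**Figure D5:**
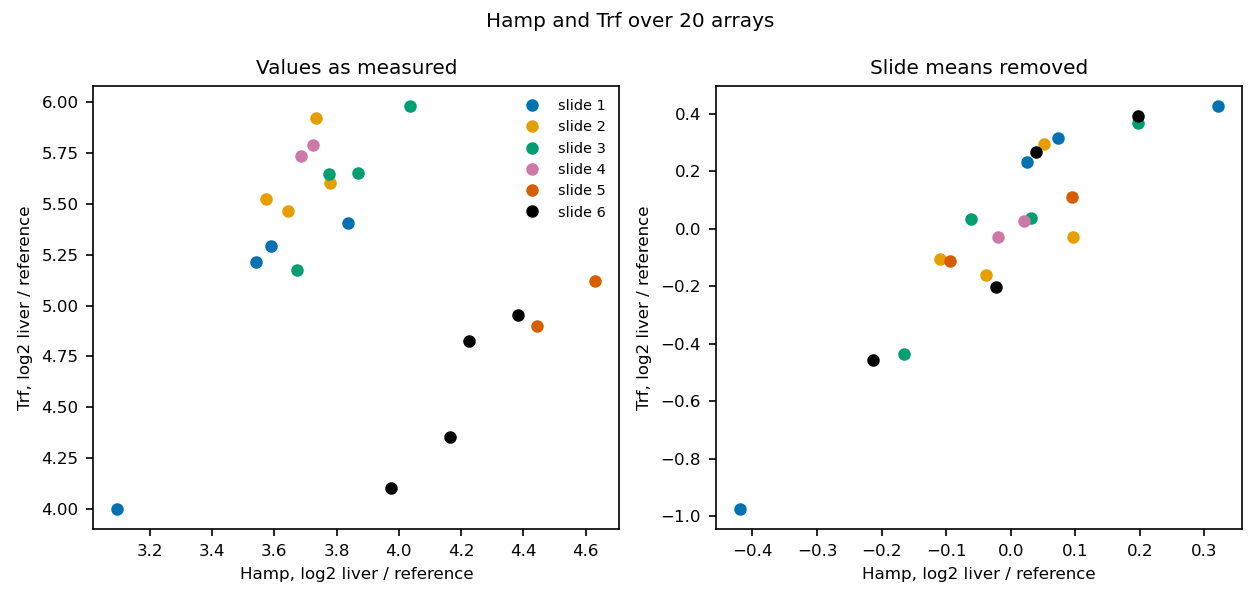
Trf level (y axis) against Hamp level (x axis), both log2 liver over reference, on 20 arrays coloured by slide, as measured (left) and with each slide's mean removed (right). As measured, the arrays of slides 5 and 6 lie to the lower right and r is -0.087, and within slides the points line up with r = 0.92, the lowest point being control replicate 4.

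The named genes whose levels were most like each member's were looked for among 12808 genes over the 20 arrays, as a description. For Hamp they were Fga, Ces1d and Apof (r = 0.934 to 0.891), and with slide means removed Cyp2c40, Slc25a47 and Hal (0.955 to 0.94). For Hamp2 they were Scd1, Klk1b3 and Klk1b4 (0.873 to 0.827), and Scd1 stayed among the first 3 with slide means removed (0.904), beside Ces1g and Sh3bp5. Trf went with Cyp2d12, Apoa1 and Ppara (0.981 to 0.965) and Tfr2 with Pipox, Ppara and Cyp2c40 (0.95 to 0.937). Bmp6 was most like Gstt1, Pde2a and Gstm7 (0.868 to 0.814). Tfrc went with Nae1, Guf1 and Dnm1l, Slc40a1 with L3hypdh, Jak1 and Ivns1abp, Fth1 with Rnf115, Aldh6a1 and Rab6a, Ftl1 with Cops7b, Lpcat3 and Ubap2, and Hfe with Vipas39, Dhx32 and Rufy1, at r between 0.819 and 0.933. With slide means removed, Nae1 was again among the first 3 for Tfrc (0.876), Ivns1abp for Slc40a1 (0.805) and Cyp2d12 for Trf (0.959).

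Beyond the members, 66 of 74 listed genes of iron handling were measured, and 0 were called at any dose. At an unadjusted p under 0.05, 3 were higher and 1 lower at 25 mg/kg/day, 4 and 1 at 50, and 5 and 5 at 75 mg/kg/day, beside 524 and 503, 571 and 397, and 984 and 640 of all 12986 named genes. Median log2 fold changes of the 66 were 0.04, 0.07 and 0.06 against -0.01, -0.01 and -0.0006 over all genes. In the BMP and SMAD list of 18 measured genes, 2 had an unadjusted p under 0.05 at each dose, all higher. Of all present probes 7.81%, 6.7% and 11.2% had such a p in limma. The 2 genes were Acvr2a and Smad6 at 25, Bmp2 and Smad6 at 50 and Bmpr2 and Id1 at 75 mg/kg/day. Of the 18, 11, 13 and 12 were higher with rising dose and 7, 5 and 6 lower, with medians of 0.07, 0.05 and 0.13. Lower ones at 75 mg/kg/day included Bmpr1a (-0.27), Bmp4 (-0.24) and Furin (-0.23). Whether the list changed as a set was not tested.

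The largest positive changes among the 66 at 75 mg/kg/day were of Id1, a SMAD target that is a common readout of BMP signalling, at 0.65 on the log2 scale (SE 0.24, adjusted p = 0.328), of Smad1, which carries the signal, at 0.51 (adjusted p = 0.567) and of Bmpr2, a BMP receptor, at 0.47 (adjusted p = 0.428). None passed the test. The lowest values were of Abcb10, a mitochondrial transporter needed for heme synthesis, at -0.85 (adjusted p = 0.615), of Lcn2, which binds iron-carrying siderophores, at -0.66 (adjusted p = 0.774) and of the iron chaperone Pcbp1 at -0.43 (adjusted p = 0.343). The interleukin 6 gene Il6, which drives hepcidin through STAT3 and was chosen after its values were seen, was well above background on 12 of 20 arrays and differed from control by -0.47, -0.36 and -0.39 with rising dose (adjusted p = 0.636, 0.707 and 0.332).

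The 10 markers of sinusoidal endothelial cells, which supply BMP6, had a median difference from control of 0.32 (log2) at 75 mg/kg/day, where 10 of 10 were above 0, as were 8 of 8 hepatocyte markers, 5 of 5 erythroid markers and 6476 of all 12986 genes. Of them 1 was called at 75 mg/kg/day, Lyve1, a hyaluronan receptor, at 2.23 on the log2 scale (adjusted p = 0.0189), and the other 9 ranged from 0.16 to 0.58. Of 9 Kupffer cell markers 1 was called there, the scavenger receptor Marco, at 2.19 (adjusted p = 0.00148), and the 9 averaged 2.17 to 2.53 in controls and 2.32 to 2.96 at 75 mg/kg/day. Most of that difference was Marco, since the mean at 75 mg/kg/day exceeded that of controls by 0.32 with it and by 0.08 without it. Over 20 arrays the endothelial mean had r = 0.429 with Bmp6 and 0.732 with Hamp2, and without Lyve1 0.298 and 0.676. With all its markers it had 0.681 with Trf and 0.59 with Tfr2. The mean of the lung epithelium markers, most of them not above background on every array, had r = 0.509 with Bmp6 and 0.457 with Hamp2. Such an r is thus not particular to the cell type of a list. The hepatocyte mean was 4.12 to 5.45 in controls and 4.95 to 5.42 at 75 mg/kg/day, with r = 0.792 with Trf and 0.689 with Tfr2. Erythroid markers, 5 of 9 of them present, averaged 3.13 to 3.82 in controls and 3.72 to 4.04 at 75 mg/kg/day. The part of these lists in the members' values was not tested.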

How the data were processed

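Liver RNA of 20 mice (4 groups of 5) was hybridised against reference RNA on 2-colour Agilent arrays. The deposited scanner files hold a spot intensity for each channel, written by Feature Extraction (version 10.1.1.1 in the file headers), and a deposited table holds log2 ratios after the authors' LOWESS normalization. Here median intensities were background corrected (normexp, offset 50) and loess normalized within arrays in limma 3.58.1 (R 4.3.3), outlier-flagged spots left out (0.292%) and spots of a probe averaged. The deposited log2 ratios correlated with these at r = 0.994 to 0.996, with the same direction. A probe was present when it was brighter than 153 negative-control spots (their trimmed mean and 3 trimmed SDs) on at least 4 of 5 arrays of any group (27346 of 41174 probes). All 20 arrays entered 1 limma fit, with Benjamini-Hochberg adjustment over present probes. The study used MAANOVA and left out 1 unnamed sample, whereas all 20 were kept here. Each mouse is 1 array, and the number of arrays limits precision. The most intense probe named a gene for lists. Every member probe is described. Of pathway genes, those called or, failing that, the 3 largest changes each way at 75 mg/kg/day are named. Members and lists were chosen with earlier results of these data known. Labels give 25 mg/kg/day for the lowest dose and the series text another value. The limma fit and its calls were tested on simulated data that held no slide effect, and the other steps were not. Alternatives were no background correction, scanner-processed signals, deposited ratios, liver channel alone, other presence filters, slide as a block, fewer arrays, other variance moderation, adjustment over 3 contrasts and leaving out each array. Marker means without Lyve1 or Marco and correlations without control replicate 4 were added after seeing the data.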

Additional observations from a re-analysis of the deposited data

Results flagged for a closer look

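In 44 groups of 5 arrays, 4 held a value far from the other 4 by Dixon's test (critical ratio 0.71), and chance alone flags about 1 in 20 groups. Hamp read 4.44 on the array of replicate 7 at 25 mg/kg/day, where the nearest other was 3.73 (ratio 0.795), and 4.63 on that of replicate 19 at 75 mg/kg/day, where the nearest was 3.87 (ratio 0.73). Both arrays were on slide 5, the only 2 it held. Slc40a1 read 4.38 in control replicate 5, with the nearest at 3.77 (ratio 0.817), an array on slide 2, where Slc40a1 was high in all 4 groups. Bmp6 read 0.50 in replicate 7 at 25 mg/kg/day, with the nearest at 0.93 (ratio 0.733).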

How the results depend on the processing

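Under 31 alternatives, 0 of 10 members and 0 of 66 pathway genes (60 where every array had to be well above background) were called at each dose. 0 members had a trend and 0 dose steps were called under those alternatives that kept all doses in 1 fit, which a fit of controls and a single dose does not. The lowest adjusted p of any member was 0.0868, for Trf at 75 mg/kg/day without control replicate 1. Over all present probes the calls at 75 mg/kg/day were 37, and 5 to 72 under alternatives (5 with only control and 75 mg/kg/day arrays, 72 without replicate 19), those of the trend 43, and 28 to 117. No paired analysis was possible because each replicate number is used for 1 mouse only, so arrays were matched by slide instead, as a block and as same-slide differences. Of 930 recomputed member values 882 kept their sign and 48 turned, none of them called in any fit, and the cause was not tested. Many of the 882 could not turn. Other presence filters, variance moderation or adjustment leave a fold change as it was. So does leaving out arrays of groups that are not compared.

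The values that turned were these, as log2 fold changes. The scanner's processed signals gave -0.008 for Hamp at 25, -0.063 for Slc40a1 at 50 and 0.012 for Fth1 at 75 mg/kg/day. The deposited ratios gave -0.041 for Hamp at 25, and -0.015 for Slc40a1 and -0.028 for Fth1 at 50. Slide as a fixed block gave -0.021 for Tfrc, -0.02 for Tfr2 and -0.075 for Fth1 at 25, and as a random block -0.033 for Fth1 at 25. The liver channel alone gave -0.238 for Fth1, -0.149 for Ftl1 and -0.187 for Trf at 25, -0.02 for Tfr2, -0.229 for Fth1 and -0.061 for Hfe at 50, and 0.039 for Tfrc, 0.038 for Slc40a1, -0.078 for Ftl1 and -0.012 for Hfe at 75. With each array left out in turn, values ran at 25 from -0.163 to 0.104 for Hamp, -0.064 to 0.19 for Tfrc and -0.085 to 0.081 for Fth1, at 50 from -0.108 to 0.248 for Tfr2, -0.091 to 0.155 for Slc40a1 and -0.025 to 0.129 for Fth1, and at 75 from -0.063 to 0.215 for Hamp, -0.225 to 0.029 for Tfrc and -0.163 to 0.087 for Slc40a1. The numbers of arrays, and for Bmp6 a dim spot (149 to 263 scanner units in the liver channel), limit what these ratios can resolve.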
